A study of Mus musculus with 15 samples.

Results

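The 10 genes described here, of non-canonical Wnt signalling and planar cell polarity, were followed through the development of the mouse secondary palate, the tissue that separates the mouth from the nose. They were taken as a fixed list of symbols, 10 of the 54232 genes in the table: the ligands Wnt4, Wnt5a, Wnt5b and Wnt11, the receptors Ror1, Ror2 and Ryk, and the planar polarity components Vangl1, Vangl2 and Prickle1. RNA was sequenced in bulk from dissected palates at 5 stages: 4 embryonic days, called E13.5, E14.5, E15.5 and E16.5, and birth (P0). All mice were wild type with no treatment named, and strain and sex are not given in the sources used here. Each stage had 3 libraries, and each library came from palates pooled from 3 embryos, so a replicate here is a pool and not an animal. The stated aims of the study include Wnt-dependent mechanisms of palate morphogenesis, and the comparisons here are between wild-type stages.

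Wnt5a and related ligands bind the tyrosine kinase-like receptors Ror1, Ror2 and Ryk and can signal without beta-catenin, through small GTPases and JNK to the cytoskeleton. Vangl and Prickle proteins sit with Celsr and Frizzled proteins at cell contacts and give cells of a sheet or a mesenchyme a shared orientation. In the palate this branch is known for cell movement and shelf growth, and mice without Wnt5a or Ror2 are born with a cleft palate. Wnt4 and Wnt11 act through either branch of Wnt signalling, depending on the receptors of the cell.

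Between E13.5 and P0, 7 of the 10 genes changed (edgeR's quasi-likelihood test, Benjamini-Hochberg adjusted p under 0.05 over all genes tested), against 56.6% of all 22151 genes tested. Vangl2, Wnt5a, Ror1, Ror2 and Prickle1 fell, and Wnt4 and Vangl1 rose. The falls made 5 of 10 against 26.8% of all genes that fell, and the rises 2 of 10 against 29.8% that rose. Ryk measured 91.7 to 129.6 CPM, the library-scaled count, over all 15 libraries. The genes with the largest changes in each role were Vangl2, which was 3.95-fold lower at P0, Wnt4, which was 3.22-fold higher, and Ror1, which was 3.05-fold lower.

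The 300-base windows around the annotated starts of 4 genes are printed to show examples from each role among the 7 that changed over the whole span: Vangl2, with the largest fall, the receptor pair Ror1 and Ror2, and Wnt4, with the largest rise. Sequences and starts are RefSeq's on GRCm38.p6, running 5′ to 3′ along the gene from 250 bases before the start to 50 after it. The windows are chr1:172027246-172027545 on the minus strand for Vangl2, chr4:100095541-100095840 on the plus strand for Ror1, chr13:53286075-53286374 on the minus strand for Ror2 and chr4:137277385-137277684 on the plus strand for Wnt4. Capitals mark matches on either strand to the core of the TCF/LEF motif (CTTTGA or TCAAAG), the GC box (CCGCCC or GGGCGG) and the TATA box (TATAAA or TTTATA). GC box matches can overlap one another.
Vangl2: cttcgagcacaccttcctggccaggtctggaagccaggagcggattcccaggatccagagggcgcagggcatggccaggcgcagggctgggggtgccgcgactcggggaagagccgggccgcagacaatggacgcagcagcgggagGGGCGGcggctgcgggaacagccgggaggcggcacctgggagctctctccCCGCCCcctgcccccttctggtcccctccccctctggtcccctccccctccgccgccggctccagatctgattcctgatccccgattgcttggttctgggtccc
Ror1: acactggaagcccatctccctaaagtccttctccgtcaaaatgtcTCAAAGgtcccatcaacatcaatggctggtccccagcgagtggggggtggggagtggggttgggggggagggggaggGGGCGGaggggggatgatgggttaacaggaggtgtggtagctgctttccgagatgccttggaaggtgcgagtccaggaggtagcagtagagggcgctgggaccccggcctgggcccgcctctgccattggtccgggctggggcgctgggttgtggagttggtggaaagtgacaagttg
Ror2: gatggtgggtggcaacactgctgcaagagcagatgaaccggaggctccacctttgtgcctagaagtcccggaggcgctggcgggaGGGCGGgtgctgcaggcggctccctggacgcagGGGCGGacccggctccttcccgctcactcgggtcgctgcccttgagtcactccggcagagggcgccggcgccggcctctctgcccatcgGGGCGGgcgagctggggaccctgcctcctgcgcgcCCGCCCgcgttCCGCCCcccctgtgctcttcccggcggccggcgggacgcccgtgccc
Wnt4: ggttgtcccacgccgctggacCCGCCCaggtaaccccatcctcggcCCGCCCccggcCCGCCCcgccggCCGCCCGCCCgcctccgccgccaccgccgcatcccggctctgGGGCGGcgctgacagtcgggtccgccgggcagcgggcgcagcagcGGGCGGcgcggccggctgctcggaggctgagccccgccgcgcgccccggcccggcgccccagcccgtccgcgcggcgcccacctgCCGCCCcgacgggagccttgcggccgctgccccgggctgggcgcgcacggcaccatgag

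All 4 windows held a GC box, a match that 35.7% of the 32851 windows of this length in the RefSeq table also held. Wnt4 had 8 matches and 51 CpG dinucleotides, Ror2 had 5 and 32, Vangl2 had 2 and 21, and Ror1 had 1 and 10, against a median of 7 CpG over all windows. Ror1 was the only one of the 4 with the TCF/LEF core, which 5257 of the 32851 windows held, and none of the 4 had the TATA box, which 13.6% held. Windows were listed for 8 of the 10 genes (12 windows in all), and Wnt5a and Vangl1 had no entry. A GC box stood in at least 1 window of each of the 8. Of the 2 genes that rose only Wnt4 had a window, so rises and falls could not be compared. These matches describe letters in a window and not the binding of a factor.

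Library depth ranged from 21.5 M to 69.02 M counts, and 3 counts, the floor used for detection, corresponded to 0.0435 to 0.140 CPM. All 10 genes were far above it, with 351 to 12725 counts per library. The summed palate mesenchyme markers (10 genes, among them Osr2, Tbx22 and Prrx1) fell from 648 to 1051 CPM at E13.5 to 306 to 472 CPM at P0, while osteoblast markers rose from 88.4 to 183 to 3268 to 6443 CPM, skeletal muscle markers from 233 to 435 to 6762 to 40335 CPM, and epithelium markers from 263 to 604 to 1030.5 to 3219.7 CPM. Tbx22 stood at 0.152 to 1.79 CPM in the P0 libraries. In bulk tissue, fewer cells of a type and less RNA per cell cannot be told apart. E14.5 libraries 1 and 3 stood apart from the rest with 1409 and 774 CPM of choroid plexus markers (6 genes), against 27.2 to 489 CPM in the other 13, and E14.5 library 1 also held 292 CPM of trunk Hox genes (6 genes) against at most 60.6 CPM in any other library. E14.5 library 2 held the 60.6 CPM, above the 17.4 CPM at most in the libraries of other stages. The Vangl changes and the ratios that use E14.5 are given with and without libraries 1 and 3. For other counts of calls, only the direction of any difference is given. The E14.5 levels and the folds of single pathway genes are given with all 3. Y-linked transcripts were at or below 0.166 CPM in all 3 E16.5 libraries while the other stages held a mix, so sex and stage cannot be told apart for E16.5.

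**Figure D1:**
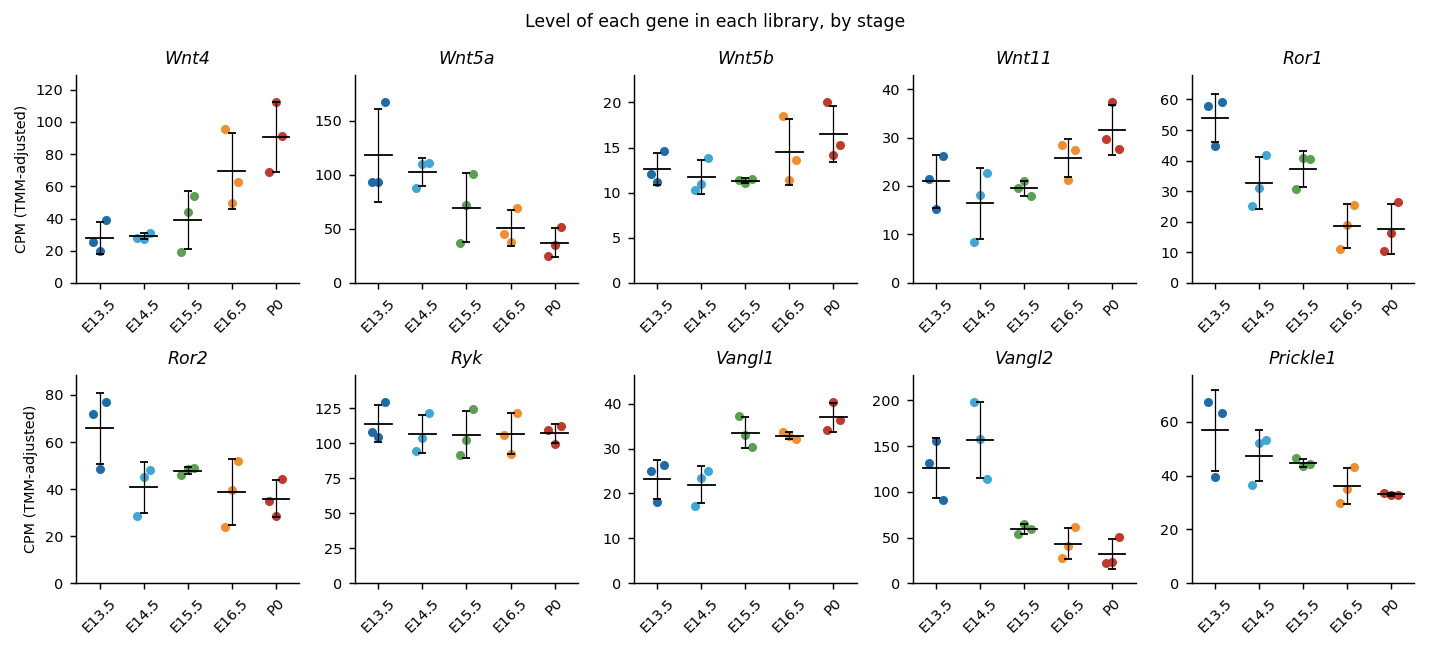
Levels of the 10 genes in CPM (linear axis from 0) in each of the 15 libraries, by stage; points are libraries, horizontal lines are stage means and bars are 1 SD (n = 3). Vangl2 lies at 91.1 to 198 CPM in the 6 libraries of E13.5 and E14.5 and at 21.9 to 65.2 CPM in the other 9, while Ryk is level.

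Among the ligands, Wnt5a was the most abundant at E13.5 and fell over the span. It encodes the best known non-canonical ligand of the palate and lies on chromosome 14 from 28504750 to 28527448 (GRCm38, plus strand). Its levels were 93.5, 93.1 and 168 CPM in the 3 libraries of E13.5, 87.6, 110.1 and 111 at E14.5, 36.7, 72.0 and 101 at E15.5, 45.7, 37.8 and 69.7 at E16.5, and 25.0, 35.5 and 51.7 at P0. Every P0 library was below every E13.5 library, and the E15.5 libraries overlapped both. The P0 level was 3.16-fold lower than the E13.5 level (log2 change -1.66, SE 0.38, adjusted p = 0.00283), and no step between neighbouring stages passed the threshold. Across all 5 stages Wnt5a changed with an adjusted p of 0.0105.

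Wnt5a moved with the palate mesenchyme markers: per 100 CPM of their sum it measured 9.40 to 15.96 at E13.5 and 7.71 to 11.6 at P0, so the stages overlapped on that scale. The part of that cell type in the fall was not tested.

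Wnt4, on chromosome 4 from 137277489 to 137299726 (plus strand), ran the other way. It measured 25.5, 19.9 and 39.2 CPM at E13.5, 28.2, 27.6 and 31.1 at E14.5, 18.96, 44.2 and 54.1 at E15.5, 95.7, 49.9 and 62.6 at E16.5, and 68.95, 112 and 91.0 at P0. All P0 libraries exceeded all E13.5, E14.5 and E15.5 libraries. The rise from E13.5 to P0 was 3.22-fold (log2 change 1.69, SE 0.37, adjusted p = 0.00204). Its largest step was from E15.5 to E16.5, with a log2 change of 0.83 (SE 0.36), which was not past the threshold (unadjusted p = 0.0407, adjusted p = 0.209).

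Wnt4 and the epithelium markers had the same order among the 3 libraries at E13.5 and at E15.5, but not at the other 3 stages. Library 1 of E16.5, the highest of its stage for Wnt4, had the lowest epithelium sum of that stage, 1110.4 CPM. The part of the epithelium in the rise was not tested.

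Wnt11 and Wnt5b did not pass the threshold over the span. Wnt11, a ligand known from convergent extension movements (chromosome 7, 98835112 to 98855195, plus strand), stood at 21.5, 15.3 and 26.2 CPM at E13.5, 8.46, 18.1 and 22.6 at E14.5, 19.5, 21.05 and 17.98 at E15.5, 28.4, 21.2 and 27.4 at E16.5, and 29.7, 37.4 and 27.6 at P0. Its P0 libraries all lay above its E13.5 libraries, but the log2 difference of 0.59 (SE 0.30) had an adjusted p of 0.109. The low value of 8.46 CPM belonged to E14.5 library 1, which stood apart above.

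Wnt5b, the closest relative of Wnt5a (chromosome 6, 119432531 to 119544347, minus strand), had the lowest mean CPM of the 4 ligands at every stage, with 10.3 to 20.1 CPM over all 15 libraries. It also has the shortest exonic length of the 4, 2654 bases. Per kilobase its mean was above that of Wnt11 at E14.5 (4.41 against 3.96) and of Wnt5a at P0 (6.22 against 4.78), with overlapping libraries. At the other stages it was the lowest ligand on that scale too. Its stage means ran from 11.3 ± 0.2 CPM at E15.5 to 16.5 ± 3.1 CPM at P0 (SD, n = 3). The log2 difference between P0 and E13.5 was 0.39 (SE 0.20, adjusted p = 0.123), and the libraries overlapped.

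Ratios within a library do not depend on the scaling between libraries, and they were compared between the 6 libraries of E13.5 and E14.5 and the 6 of E16.5 and P0. The 5 ratios were chosen with earlier results of these data known, so their p-values add no independent support to the single-gene calls. Wnt5a exceeded Wnt5b 2.62 to 3.89-fold per kilobase of exonic length in the early libraries, and the ratio was 0.422 to 1.74 in the late ones. The mean log2 ratio of Wnt5a over Wnt5b went from 1.60 to -0.09, a change of -1.69 (2-sided exact permutation p = 0.00216, the smallest these libraries allow; adjusted p = 0.00271 over the 5 ratios tested). Wnt11 over Wnt5a went the other way, from 0.182 to 0.435 in the early libraries to 0.743 to 2.25 in the late ones, a log2 change of 2.04 with the same exact permutation p. Early and late libraries did not overlap for either ratio: relative to Wnt5a, Wnt5b and Wnt11 were more abundant in the late libraries. Without E14.5 libraries 1 and 3 the changes were -1.75 and 1.93.

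The receptors Ror1 and Ror2 fell to different degrees. Ror1, on chromosome 4 from 100095791 to 100444765 (plus strand), gave 57.8, 44.8 and 59.2 CPM at E13.5, 25.2, 31.0 and 41.9 at E14.5, 30.6, 40.8 and 40.6 at E15.5, 11.3, 19.01 and 25.5 at E16.5, and 10.3, 16.3 and 26.6 at P0. Every E13.5 library was above every library of the later stages. Ror1 was 3.05-fold lower at P0 than at E13.5 (log2 change -1.61, SE 0.35, adjusted p = 0.00186). Per 100 CPM of palate mesenchyme markers it measured 5.64 to 6.92 at E13.5 and 3.19 to 5.64 at P0, where the lowest E13.5 and the highest P0 library met. Its step from E15.5 to E16.5, where the libraries did not overlap, had a log2 change of -1.005 (SE 0.34, unadjusted p = 0.0119, adjusted p = 0.126).

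Ror2, the Wnt5a receptor mutated in human Robinow syndrome (chromosome 13, 53109312 to 53286124, minus strand), gave 71.9, 48.7 and 77.0 CPM at E13.5, 28.5, 45.3 and 48.3 at E14.5, 46.0, 48.5 and 48.9 at E15.5, 24.1, 39.6 and 52.1 at E16.5, and 35.1, 28.5 and 44.1 at P0. The P0 libraries were below those of E13.5 by 1.84-fold (log2 change -0.88, SE 0.28, adjusted p = 0.0180). This call was lost when E13.5 library 1 or 3 or P0 library 1 or 2 was left out, with adjusted p of 0.0533, 0.0582, 0.0600 and 0.0834. Over all 5 stages Ror2 was not past the threshold (adjusted p = 0.0710). Per 100 CPM of palate mesenchyme markers, Ror2 measured 7.22 to 7.53 at E13.5 and 9.32 to 10.8 at P0, the opposite direction to its CPM, a description chosen after the data were seen. This rise was not particular to Ror2: Ryk, level in CPM, went from 10.9 to 16.2 at E13.5 to 23.8 to 33.9 at P0 on that scale.

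The Ror2 over Ror1 ratio per kilobase was 1.48 to 1.99 in the early libraries and 2.25 to 4.60 in the late ones, with 1.61 to 2.04 at E15.5. The log2 change from early to late was 0.79 (2-sided exact permutation p = 0.00216, adjusted p = 0.00271), with no overlap, and 0.74 without E14.5 libraries 1 and 3. Wnt5a over its receptor Ror2 fell by 0.87 on the log2 scale (exact permutation p = 0.00866, also after adjustment), but early and late libraries overlapped there, and the highest ratios were at E14.5, 1.24 to 1.67. Without E14.5 libraries 1 and 3 that change was -0.71 (adjusted p = 0.0476).

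Ryk is an atypical kinase that also binds Wnt5a (chromosome 9, 102834917 to 102908305, plus strand). It measured 108, 105 and 129.6 CPM at E13.5, 94.6, 104 and 122 at E14.5, 91.7, 103 and 124 at E15.5, 106, 92.6 and 122 at E16.5, and 109.8, 99.5 and 112 at P0. All 5 stages overlapped, and stage means stayed between 106 and 114 CPM. The log2 difference between P0 and E13.5 was -0.09 with an SE of 0.15 (adjusted p = 0.619), and over all stages the adjusted p was 0.951.

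**Figure D2:**
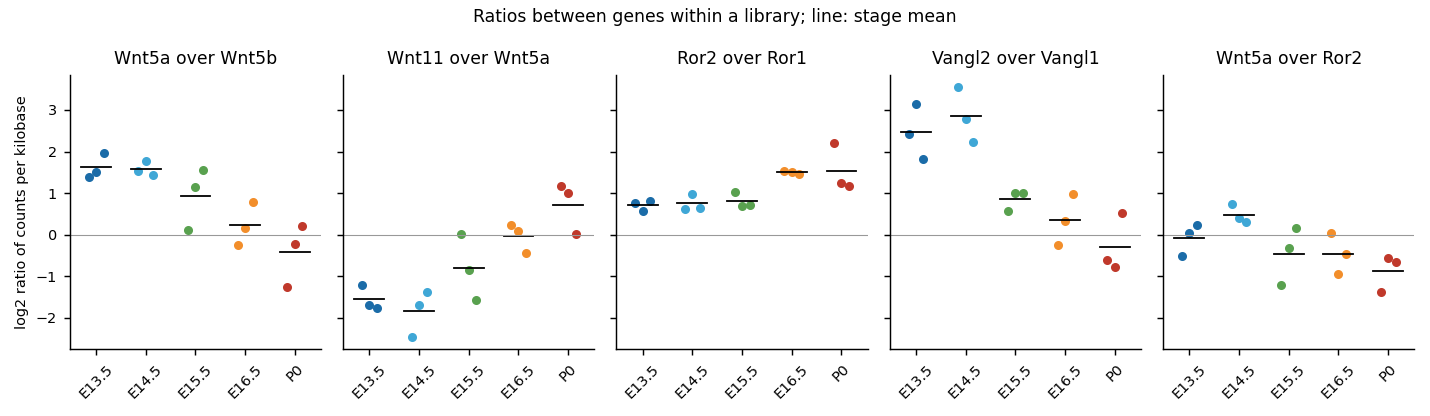
Log2 ratios of counts per kilobase between gene pairs in each library, by stage; points are libraries and lines stage means, and 0 marks equal levels. Vangl2 over Vangl1 falls from 1.82 to 3.55 in the early libraries to -0.78 to 0.98 in the late ones, and Ror2 over Ror1 rises.

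The 2 Vangl genes, which encode the membrane proteins at the centre of the polarity complex, moved in opposite directions, and the step in which they passed the test was that from E14.5 to E15.5. Vangl2 (chromosome 1, 172000960 to 172028444, minus strand) was at 131, 156 and 91.1 CPM at E13.5, 198, 158 and 114 at E14.5, 54.2, 65.2 and 59.3 at E15.5, 27.7, 40.4 and 62.0 at E16.5, and 21.9, 23.0 and 50.9 at P0. All 6 libraries of E13.5 and E14.5 exceeded the 9 later ones. Between E14.5 and E15.5 Vangl2 fell 2.63-fold (log2 change -1.40, SE 0.36, adjusted p = 0.0154), and between E13.5 and P0 3.95-fold (log2 change -1.98, SE 0.37, adjusted p = 0.00068).

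Vangl1 (chromosome 3, 102153583 to 102204693, minus strand) was at 24.9, 18.1 and 26.4 CPM at E13.5, 17.3, 23.4 and 25.1 at E14.5, 37.2, 33.1 and 30.4 at E15.5, 33.6, 32.8 and 32.2 at E16.5, and 34.2, 40.4 and 36.3 at P0. Here the 6 early libraries were all below the 9 later ones. The step from E14.5 to E15.5 was a 1.53-fold rise (log2 change 0.61, SE 0.17, adjusted p = 0.0189), and P0 was 1.60-fold above E13.5 (log2 change 0.67, SE 0.17, adjusted p = 0.00431).

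Vangl1 and Vangl2 were the only 2 of the 10 genes called between E14.5 and E15.5, 1 higher and 1 lower, where 26.1% of all genes were called (12.7% higher and 13.4% lower), so the count was near the background. Without E14.5 library 1 neither call held (adjusted p = 0.0962 for Vangl1 and 0.0716 for Vangl2). Leaving out E15.5 library 3 also ended the call of Vangl2 (adjusted p = 0.0536), and leaving out E15.5 library 1 or 2 that of Vangl1 (adjusted p = 0.0611 and 0.0543). Without both E14.5 libraries that stood apart, which leaves 1 library at that stage whose spread is assumed to be that of the other stages, the log2 changes were -1.37 for Vangl2 and 0.56 for Vangl1 with adjusted p of 0.141 and 0.206, and 589 of 24097 genes tested were called.

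In the ratio of the pair, Vangl2 exceeded Vangl1 3.54 to 11.7-fold per kilobase in the early libraries, 1.49 to 2.02-fold at E15.5, and measured 0.583 to 1.97 times Vangl1 in the late ones. The log2 change from early to late was -2.62 (2-sided exact permutation p = 0.00216, adjusted p = 0.00271), and it was -2.51 without E14.5 libraries 1 and 3 (adjusted p = 0.00794). At P0, Vangl1 was above Vangl2 in 2 of 3 libraries.

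Neuron markers (6 genes, among them Tubb3 and Stmn2) moved with Vangl2 early on. Their sums were 1276, 2241 and 791 CPM at E13.5 and 3972, 2852 and 1835 CPM at E14.5, in the same order as Vangl2 within each of these stages. In the 9 later libraries they were 845 to 1777 CPM. The order differed from that of Vangl2 at E15.5 and E16.5. At P0 it was the reverse, with sums of 1591, 1029 and 917 CPM. Between E13.5 and P0 the sums overlapped, at 791 to 2241 and 917 to 1591 CPM, and genes of the list differed. Elavl3 measured 83.9 to 316 CPM at E13.5 and 50.2 to 111 CPM at P0. Stmn2 measured 193 to 425 CPM at E13.5 and 239 to 576 CPM at P0. The part of nervous tissue in the fall was not tested. Per 100 CPM of palate mesenchyme markers, Vangl2 measured 8.66 to 24.0 at E13.5 and 6.75 to 10.8 at P0, which overlapped.

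**Figure D3:**
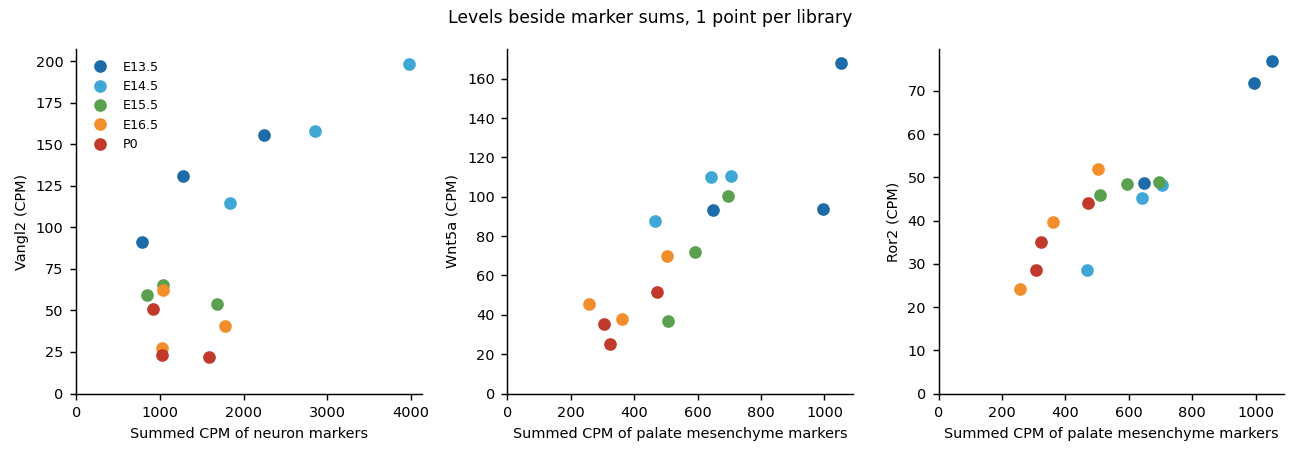
Vangl2 against summed neuron markers, and Wnt5a and Ror2 against summed palate mesenchyme markers, all in CPM with axes from 0; each point is a library, coloured by stage. Vangl2 lies at 91.1 to 198 CPM in the 6 libraries of E13.5 and E14.5, with neuron marker sums of 791 to 3972 CPM. It lies at or below 65.2 CPM in the 9 libraries from E15.5 on, with sums of 845 to 1777 CPM.

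Prickle1, a cytoplasmic partner of the Vangl proteins (chromosome 15, 93499114 to 93595891, minus strand), fell over the span. Its levels were 67.4, 39.7 and 63.4 CPM at E13.5, 36.4, 52.3 and 53.3 at E14.5, 46.5, 43.5 and 44.4 at E15.5, 30.0, 34.9 and 43.3 at E16.5, and 33.6, 32.7 and 32.7 at P0. The P0 libraries were tightly grouped and lay below all those of E13.5. The fall from E13.5 to P0 was 1.72-fold (log2 change -0.78, SE 0.20, adjusted p = 0.00560), and no neighbouring step passed. Per 100 CPM of palate mesenchyme markers, Prickle1 measured 6.03 to 6.77 at E13.5 and 6.94 to 10.7 at P0, higher at P0 with no overlap. Ror2, Ryk, Wnt4, Wnt5b, Wnt11 and Vangl1 were also higher at P0 with no overlap on this scale, which was chosen after the data were seen. The marker sum itself fell, from 648 to 1051 CPM at E13.5 to 306 to 472 CPM at P0. A gene level in CPM, such as Ryk, therefore rises on this scale. The share of all genes that did so was not computed, so this is no result particular to these genes. The part of the palate mesenchyme in the fall of Prickle1 was not tested.

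Over all stages, 6 of the 10 genes differed over the 5 stages against 59.1% of all genes tested: Wnt4 (adjusted p = 0.00343), Wnt5a, Ror1 (0.00520), Vangl1 (0.00479), Vangl2 (0.000552) and Prickle1 (0.0259). Prickle1 lost this call when single libraries were omitted in 6 of 15 cases (E13.5 library 1 or 3, E16.5 library 1, or any P0 library), with adjusted p up to 0.0768. Without E14.5 libraries 1 and 3, which leaves 1 library at that stage, the same genes of the 10 differed over the 5 stages, while fewer of all genes did. No gene of the 10 was called between E13.5 and E14.5, where 0.00903% of all genes were. There 1 of the 10, Ror2, had an unadjusted p under 0.05, as did 3538 of all 22151 genes tested. None was called between E15.5 and E16.5, where 1.41% of all genes were. Wnt4 and Ror1 had an unadjusted p under 0.05 in that step, as did 4830 of the 22151. None was called between E16.5 and P0, where 0.352% of all genes were. There 2602 of the 22151 had an unadjusted p under 0.05, and none of the 10 did. DESeq2 called none of the 10 in these 3 steps either. Over the whole span the median log2 change of the 10 genes was -0.44, beside 0.03 over all genes tested.

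**Figure D4:**
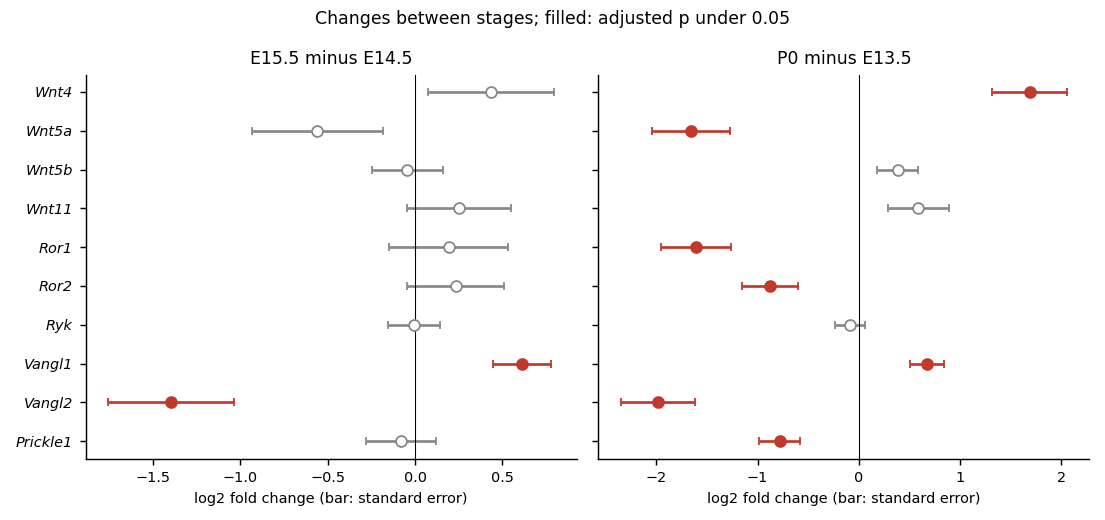
Log2 fold changes of the 10 genes from E14.5 to E15.5 and from E13.5 to P0 with their standard errors; filled points have an adjusted p under 0.05. Vangl2 (-1.40) and Vangl1 (0.61) are filled on the left, and 5 falls and 2 rises on the right.

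The order of levels changed between the ends of the span. In CPM per kilobase, which allows genes to be compared, E13.5 ran Ryk 25.2, Vangl2 18.01, Ror2 15.5, Wnt5a 15.1, Prickle1 13.1, Ror1 9.36, Wnt4 6.72, Wnt11 5.08, Wnt5b 4.76 and Vangl1 3.23. Only Ryk was clear of its lower neighbour, Vangl2, and Wnt5b of Vangl1, and the other neighbours overlapped. At P0 Ryk (23.7) and Wnt4 (21.7) came first and overlapped, Wnt4 was clear of Ror2 (8.46), and from there on every neighbour overlapped: Wnt11 7.63, Prickle1 7.60, Wnt5b 6.22, Vangl1 5.16, Wnt5a 4.78, Vangl2 4.57 and Ror1 3.08. Wnt4 thus went from rank 7 to rank 2, and Vangl2 from rank 2 to rank 9.

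At the stages between, Ryk led throughout. E14.5 ran Ryk 23.5, Vangl2 22.4, Wnt5a 13.1, Prickle1 10.9, Ror2 9.59, Wnt4 6.90, Ror1 5.67, Wnt5b 4.41, Wnt11 3.96 and Vangl1 3.06, with a gap only between Vangl2 and Wnt5a. E15.5 ran Ryk 23.4, Ror2 11.3, Prickle1 10.3, Wnt4 9.33, Wnt5a 8.91, Vangl2 8.52, Ror1 6.48, Wnt11 4.72, Vangl1 4.69 and Wnt5b 4.28, with gaps below Ryk, Ror2, Vangl2 and Ror1. E16.5 ran Ryk 23.6, Wnt4 16.5, Ror2 9.10, Prickle1 8.30, Wnt5a 6.53, Wnt11 6.21, Vangl2 6.21, Wnt5b 5.46, Vangl1 4.59 and Ror1 3.23, and only Vangl1 was clear of its lower neighbour. Wnt4 was thus the most abundant ligand per length from E15.5 on, with libraries overlapping those of Wnt5a at E15.5 and not at E16.5 or P0.

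The other genes of the pathway were taken as 27 genes in 6 role lists, and all 27 were tested. Over the whole span 14 of them changed, 2 higher and 12 lower, against 56.6% of all genes called (29.8% higher and 26.8% lower), with a median log2 change of -0.50 beside 0.03 over all genes. Over the 5 stages 18 of 27 differed, against 59.1% of all genes. Without E14.5 libraries 1 and 3, fewer of the 27 and fewer of all genes differed. Of the surface core (Celsr1, Celsr2, Celsr3, Fzd3, Fzd6 and Ptk7) 3 of 6 fell and none rose. Fzd3, a polarity receptor best known from axon guidance, went from 129 ± 47.2 to 33.6 ± 14.4 CPM (SD, n = 3; log2 change -1.94, adjusted p = 0.00116), and Celsr3, an atypical cadherin also known from axon guidance, from 104 ± 72.0 to 29.7 ± 10.1 CPM (log2 change -1.81, adjusted p = 0.0127). Of the Wnt5a surface partners (Fzd2, Fzd7 and Gpc4) 2 of 3 fell, with Fzd2, a Frizzled receptor for Wnt5a, at -1.73 (adjusted p = 0.000123).

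The cytoplasmic core (Dvl1, Dvl2, Dvl3, Prickle2, Prickle3, Prickle4 and Ankrd6) had 3 of 7 lower, the scaffold and Vangl partner list (Scrib and Dact1) 2 of 2 lower, and the actin and JNK effectors (Daam1, Daam2, Rhoa, Rac1 and Mapk8) 1 of 5 lower. The ciliogenesis effectors (Intu, Fuz, Wdpcp and Invs) had 2 higher and 1 lower of 4. The 2 that rose were Wdpcp, from 11.6 to 21.7 CPM (log2 change 0.91, adjusted p = 0.00234), and Fuz, from 19.9 to 28.3 CPM (log2 change 0.51, adjusted p = 0.00571).

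From E14.5 to E15.5, 13 of the 27 genes changed, 5 higher and 8 lower, against 26.1% of all genes (12.7% higher and 13.4% lower). The largest falls were those of Celsr3 (-1.79, adjusted p = 0.0291), Celsr2, another atypical cadherin (-1.73, adjusted p = 0.0138), and Fzd3 (-1.45, adjusted p = 0.0174) on the log2 scale. All 3 had the order of the neuron markers among the libraries of E13.5 and of E14.5. At E15.5 only Celsr3 had it, at E16.5 Celsr3 and Celsr2, and at P0 none of the 3. The largest rises were Prickle4 (1.68, adjusted p = 0.0152), at only 0.0947 CPM at E14.5 and 0.306 CPM at E15.5, Prickle3 (0.85, adjusted p = 0.0260) and Gpc4, a heparan sulphate proteoglycan (0.82, adjusted p = 0.0198). Without E14.5 libraries 1 and 3, which leaves 1 library at that stage, fewer of the 27 and fewer of all genes were called in this step. Leaving out single libraries gave 5 to 12 of the 27. The count was 5 without E14.5 library 1, where 2320 of 22824 genes tested were called, and 5 without E15.5 library 3 (3010 of 22707). It was 7 without E14.5 library 2 (3259 of 22854) and 8 without E15.5 library 2 (2975 of 22732).

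From E15.5 to E16.5 1 gene fell, Dact1, a Dishevelled and Vangl partner, with a log2 change of -0.75 (adjusted p = 0.0353). This call was not kept without E15.5 library 1, 2 or 3 or E16.5 library 1 or 2. None of the 27 was called from E13.5 to E14.5 or from E16.5 to P0, and DESeq2 called 1 in each. From E13.5 to E14.5, 8 of the 27 had an unadjusted p under 0.05, beside 3538 of all 22151 genes tested. From E16.5 to P0, 3 of the 27 did, beside 2602 of the 22151.

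Genes with the most similar course over the 15 libraries were taken from 13049 other protein-coding genes with a mean of at least 5 CPM, by Pearson's r of log2 CPM. The libraries share their stages, so r describes a shared time course and carries no test. Vangl2 was closest to Zfp41 (0.99), Fzd3 (0.99) and Csrnp2 (0.99), and Wnt5a to Slitrk6, Crnkl1 and Unc119b (0.95 each). Ror2 was closest to Daam2, a formin of the same pathway (0.94), to Tns3 (0.94) and to Snai2, a mesenchymal transcription factor (0.94). Wnt11 was closest to Map2k3, Vegfd and Cdhr4 (0.90 each).

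Counting affected the genes little. No exon of the 10 overlapped another gene's exon on its strand, and opposite-strand exons overlapped Wnt5a, Wnt11 and Vangl1, where the stranded counting keeps the strands apart. Of the 50-base stretches of their transcripts, 3.85% were shared with other genes for Wnt4, 0.371% for Vangl1, 0.0996% for Vangl2 and 0.0128% for Wnt5a, and none for the other 6.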

How the data were processed

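RNA of wild-type palates was measured in 15 libraries, 3 for each of 5 stages, grouped by the labels. Per the file headers, the authors made the deposited counts with featureCounts 2.0.1, with each read pair counted once, on the reverse strand, against GENCODE M18 genes. The submitters' processing notes name cutadapt 3.4, FastQC 0.11.9, Bowtie2, HISAT2 2.2.1, SAMtools 1.12, Subread 2.0.1 and the build mm10, with no roles given. Symbols came from GENCODE M21 on GRCm38. Of 54165 identifiers found there, 97.5% had the same position, as did all 10 genes.

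Genes passing edgeR's filterByExpr (minimum count 10) numbered 22151 and included all 10. Counts were scaled by the trimmed mean of M values and modelled with edgeR 4.0.16 under R 4.3.3, each stage with its own coefficient (common biological coefficient of variation 0.332). Stage contrasts and the 5 stages together were tested with the quasi-likelihood F test, Benjamini-Hochberg adjusted over all tested genes, at 0.05. Standard errors were obtained from each fold change and its F value. CPM use the adjusted library sizes, and CPM per kilobase the exonic length in the table. Ratios were tested with 2-sided exact permutation tests over 12 libraries (924 arrangements). The scripts were tested on simulated data.

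The genes, lists, ratios and tests were chosen with earlier results of these data known. All 10 genes are named, along with the 3 largest rises and falls of the pathway lists in each contrast and the 3 genes most like Wnt5a, Wnt11, Ror2 and Vangl2. Depth was 21.5 M to 69.02 M counts. Libraries of a stage differed far beyond counting error, with a chi-square per degree of freedom of 32.6 to 246. The floor of 3 counts covers counting error only. Alternatives were another scaling, filter, tool (DESeq2 1.42.0) or set of libraries, a replicate block, and leaving out each library.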

Additional observations from a re-analysis of the deposited data

How the results depend on the processing

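No change called in the analysis reversed under any alternative. The 7 calls between E13.5 and P0 held under every scaling, filter and tool, and 6 of them (all but Ror2) also without any 1 library. The 5 ratios kept their direction and call throughout. Upper-quartile scaling moved the median log2 change of all genes from 0.03 to 0.16 between E14.5 and E15.5. Pools of 3 embryos and 3 libraries a stage limit what could be called.

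Genes called between E14.5 and E15.5 numbered 0 to 2 of the 10 and 5 to 12 of the 27 pathway genes when 1 library was left out, against 2 and 13 with all. They numbered 0 and 1 without E14.5 libraries 1 and 3, an alternative chosen after seeing the data. Between E15.5 and E16.5, 0 to 1 of the 27 were called with 1 library left out, 2 with DESeq2 and 0 when only the 6 libraries of the step were fitted. DESeq2 called 1 of the 27 between E13.5 and E14.5 and 1 between E16.5 and P0. Prickle1 over 5 stages had an adjusted p of 0.0566 with upper-quartile scaling, and DESeq2 called Ror2 (0.0436) and Wnt11 (0.0438) there. The cause of these shifts was not tested.

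The check of whether replicate numbers pair the libraries was mixed. Deviations of same-numbered libraries correlated by over 0.1 in 9 of 30 pairs (mean 0.06, against -0.03 for other pairs). Of the 15 libraries, 8 were nearest their own number. Library 3 had the highest palate mesenchyme and epithelium marker sums of its stage at every stage. With a replicate block, Ror1 (log2 change -1.07, adjusted p = 0.0489) was 1 of the 10 called between E15.5 and E16.5. In that step 2 of the 27 and 422 of 22151 genes tested were called. Wnt5a was called between E14.5 and E15.5 (-0.66, adjusted p = 0.0489), and Ror2 over 5 stages (0.0322).

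Changes of sign occurred only among small uncalled log2 changes. From E14.5 to E15.5, Ryk (-0.01) measured 0.0133 with DESeq2, 0.0155 with RLE scaling, 0.0814 with a mean of at least 1 CPM, 0.0726 without E14.5 libraries 1 and 3, 0.0444 with no filter, 0.00558 on 6 libraries and 0.125 with upper-quartile scaling. Wnt5b (-0.04) measured 0.0417 with a mean of at least 1 CPM, 0.0897 without E14.5 libraries 1 and 3, 0.00538 with no filter and 0.0822 with upper-quartile scaling, and Prickle1 (-0.08) measured 0.00472 with the mean of at least 1 CPM and 0.0448 with upper-quartile scaling. From E13.5 to E14.5, Wnt4 (0.04) measured -0.0516 without E14.5 libraries 1 and 3, -0.00309 on 6 libraries and -0.0414 with upper-quartile scaling. Ryk from E15.5 to E16.5 measured -0.000576 with no filter and -0.0232 with upper-quartile scaling, and from E16.5 to P0 -0.0412 with no filter. Leaving out 1 library gave, from E13.5 to E14.5, -0.198 to 0.00435 for Ryk, -0.222 to 0.0702 for Vangl1, -0.155 to 0.351 for Wnt4, -0.341 to 0.140 for Wnt5a and -0.246 to 0.00841 for Wnt5b. From E14.5 to E15.5 it gave -0.247 to 0.00437 for Prickle1, -0.138 to 0.0899 for Ryk, -0.0704 to 0.547 for Wnt11 and -0.138 to 0.0855 for Wnt5b. From E15.5 to E16.5 it gave -0.0989 to 0.135 for Ryk and -0.0972 to 0.0525 for Vangl1. From E16.5 to P0 it gave -0.249 to 0.0211 for Prickle1, -0.483 to 0.223 for Ror1, -0.360 to 0.168 for Ror2 and -0.0923 to 0.107 for Ryk.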
